A study of Mus musculus with 12 samples.

Results

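The translation factor genes outside the eIF4 family comprised 51 of the 22462 genes counted in ribosome profiling libraries of mouse embryonic stem cells and epiblast-like cells. They were taken by symbol, as every gene named Eif or Eef followed by a digit, without the Eif4 genes and without pseudogenes. The rule itself used no measured value, although it and the lists were set with earlier results of these data known. They fell into 6 genes of eIF1, eIF1A and eIF6, 4 eIF2 subunits, 4 eIF2 kinases, the pair eIF2A and eIF2D, 5 eIF2B subunits, 14 eIF3 subunits, 4 genes of the eIF5 group, 6 elongation factors, and 6 modifying enzymes or partners of elongation factors. Of these, 48 passed the filter on low counts and were tested. The other 3, Eif3j1, Eif3j2 and Eef1akmt3, had at most 1.91 CPM (counts scaled to a common library size) in any library.

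The study asked how mRNA level and translation differ between naive and primed pluripotency. Embryonic stem cells (ESCs) grew in serum with LIF and the 2i inhibitors PD0325901 and CHIR99021, and epiblast-like cells (EpiLCs) were the same kind of cells about 56 hours after LIF and 2i had been withdrawn. The labels name neither the line nor the strain, and the study lists an ESC line with fluorescent microRNA reporters for this differentiation. Ribosome protected fragments (RPFs), the stretches of mRNA shielded by translating ribosomes, and total RNA were each sequenced from 3 ESC and 3 EpiLC samples, giving 12 libraries in 4 groups.

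The libraries held between 2681439 and 14655015 counted reads, with the RPF libraries of EpiLCs the shallowest group. Translation factor genes took 2.07 to 2.18% of the counts in total RNA. In RPF libraries they took 1.67 to 1.74% in ESCs and 1.82 to 1.94% in EpiLCs. Eef2 alone went from 2208 to 2563 CPM in ESC RPFs up to 4234 to 4604 CPM in EpiLC RPFs. More members fell (20) than rose (12) in RPFs, so the share does not show a rise of the members at large. The 5 naive markers (Zfp42, Esrrb, Klf4, Tbx3 and Nr0b1) summed to 1128 to 1262 CPM in ESC total RNA and 43.6 to 73.9 CPM in EpiLC total RNA, and the 5 primed markers (Fgf5, Otx2, Dnmt3b, Pou3f1 and Sox3) went from 107 to 199 CPM up to between 1130.4 and 1212 CPM. The summed level of 11 genes of endoderm, trophoblast, mesoderm and fibroblasts was also higher in EpiLCs, 62.5 to 76.7 CPM against 29 to 32.7 CPM in total RNA, most of it Krt8. Elf5 was at 0 in every library and Cdx2 did not exceed 0.115 CPM. The part of such cells in the changes below was not tested, and in bulk samples fewer cells of a type cannot be told apart from less RNA per cell.

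Initiation begins when eIF2, bound to GTP, carries the initiator methionyl-tRNA to the small ribosomal subunit, on which eIF1, eIF1A and the large eIF3 scaffold hold an open, scanning conformation. At the start codon eIF5 triggers GTP hydrolysis by eIF2, eIF5B joins the large subunit, and eIF2B recharges eIF2 with GTP. Stress kinases phosphorylate eIF2 and turn it into an inhibitor of eIF2B, which lowers initiation on most mRNAs. During elongation eEF1A delivers aminoacyl-tRNAs, the eEF1B subunits recharge eEF1A, and eEF2 moves the ribosome by a codon until eEF2 kinase phosphorylates and inhibits it. Many mRNAs of ribosomal proteins and elongation factors begin with a run of pyrimidines, the TOP motif, through which mTOR signalling controls their translation.

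Several of these factors exist as close paralogues, and reads were kept only where they mapped to 1 place in the genome. The windows below are the first counted bases of each gene, shown for the bases that differ within a pair. They were not chosen for reads that can be placed, and copies of them elsewhere, such as in pseudogenes, were not marked. Each is coding nucleotides 46 to 74 (29 bases, counted from the A of the start codon) of a transcript in the GENCODE annotation of the GRCm38 genome, read 5′ to 3′, with the bases that differ from the paralogue in capitals.
Eef1a1: gtAgaTtcCggcaagtccaccacAacCgg
Eef1a2: gtGgaCtcAggcaagtccaccacGacAgg
Eif5a: GCcacCtTCccAatgcagtgctcagcATt
Eif5a2: AGcacTtATccTatgcagtgctcagcCCt
Eif2s3x: tcCcgAcaggatctCgccacAttggatgt
Eif2s3y: tcTcgTcaggatctTgccacTttggatgt
Eif1: gcaaGtaagggTgaTgacCtGctTccTgc
Eif1b: gcaaCtaagggCgaCgacTtActCccGgc
In these windows 5 bases separated Eef1a1 from Eef1a2, 8 separated Eif5a from Eif5a2, 4 separated Eif2s3x from Eif2s3y, and 7 separated Eif1 from Eif1b.

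Pseudogene copies were the larger source of shared sequence. Of the 51 genes, 20 had every 29-nt window of their counted sequence to themselves among annotated transcripts, 10 had under 50% of windows to themselves, and 29 shared windows with at least 1 annotated pseudogene. All 5 eIF2B subunits and all 4 eIF2 kinases were wholly unique. Eif1 kept 1.13% of its windows, Eif2s3x 1.79%, Eef1g 4.60%, Eef1a1 11.4% and Eif2s2 15.0%, and Eif3j1 and Eif3j2 kept none. Copies outside the annotation were not searched. The part of such copies in the levels below was not tested.

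The start windows of a few members are shown for the pyrimidine run that marks TOP mRNAs, since the elongation factors and several eIF3 subunits are listed among these. Each gives 10 bases before and 20 bases from the RefSeq start in GRCm38.p6, on the transcribed strand, with a run in capitals when a C followed by at least 4 bases that are each C or T began within 5 bases of the start.
Eef1a1, chr9:78481705-78481734, minus strand: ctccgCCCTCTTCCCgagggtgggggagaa
Eef2, chr10:81176621-81176650, plus strand: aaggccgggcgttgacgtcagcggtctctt
Eef1b2, chr1:63176821-63176850, plus strand: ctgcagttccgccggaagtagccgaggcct
Eif3f, chr7:108934405-108934434, plus strand: tctaggCTCTCTCTCTTTCTCggcaagatg
Eif3b, chr5:140419295-140419324, plus strand: ggcgcgcggtgaCTTCTgggagtcggaagc
Eif2b5, chr16:20498807-20498836, plus strand: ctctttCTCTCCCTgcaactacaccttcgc
Eif2s2, chr2:154892887-154892916, minus strand: aaggttggctttactgtacgcctgcgcttt
Such a run was present for 12 of the 40 members with an entry (30%), against 21.2% of all 27025 genes with one. Only the transcribed strand was searched, and no such run began within 5 bases of the start of Eef2, Eef1b2 or Eif2s2. A TOP motif opens the mRNA itself, and whether these RefSeq starts are the mRNA starts was not tested.

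Between ESCs and EpiLCs, mRNA changes were tested as total RNA, ribosome occupancy as RPFs, and translational efficiency (TE) as the difference between the RPF and the total RNA change, all in limma with Benjamini-Hochberg adjustment over the 11750 genes that passed the filter. In total RNA 8 members rose and 21 fell, 29 of 48, where 65.4% of all genes tested were called (34.6% higher and 30.7% lower). In RPFs 12 rose and 20 fell, where 59.8% of all genes were called (31.1% higher and 28.7% lower). The share of members called was near the background in both. The median log2 change of members was -0.12 in total RNA and -0.11 in RPFs, beside 0.03 and 0.01 over all genes tested. With a log2 change beyond 1 also required, 2 members rose and 4 fell in total RNA, where 24.3% of genes were called (14.6% higher and 9.7% lower). The same numbers rose and fell in RPFs, where 26.0% were called (15.4% higher and 10.6% lower). In TE 2 members rose and 0 fell in limma, where 1.2% of all genes were called (0.57% higher and 0.63% lower). At an unadjusted p below 0.05, 12 members differed in TE, 6 of them lower, and edgeR and DESeq2 also called 0 lower after adjustment. No TE change of a member passed with the fold limit, beside 0.255% of all genes (0.136% higher and 0.119% lower). The ESC and EpiLC libraries did not overlap for 29 of 48 members in total RNA and 34 of 48 in RPFs, beside 70.3% and 63.1% of all genes tested.

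**Figure D1:**
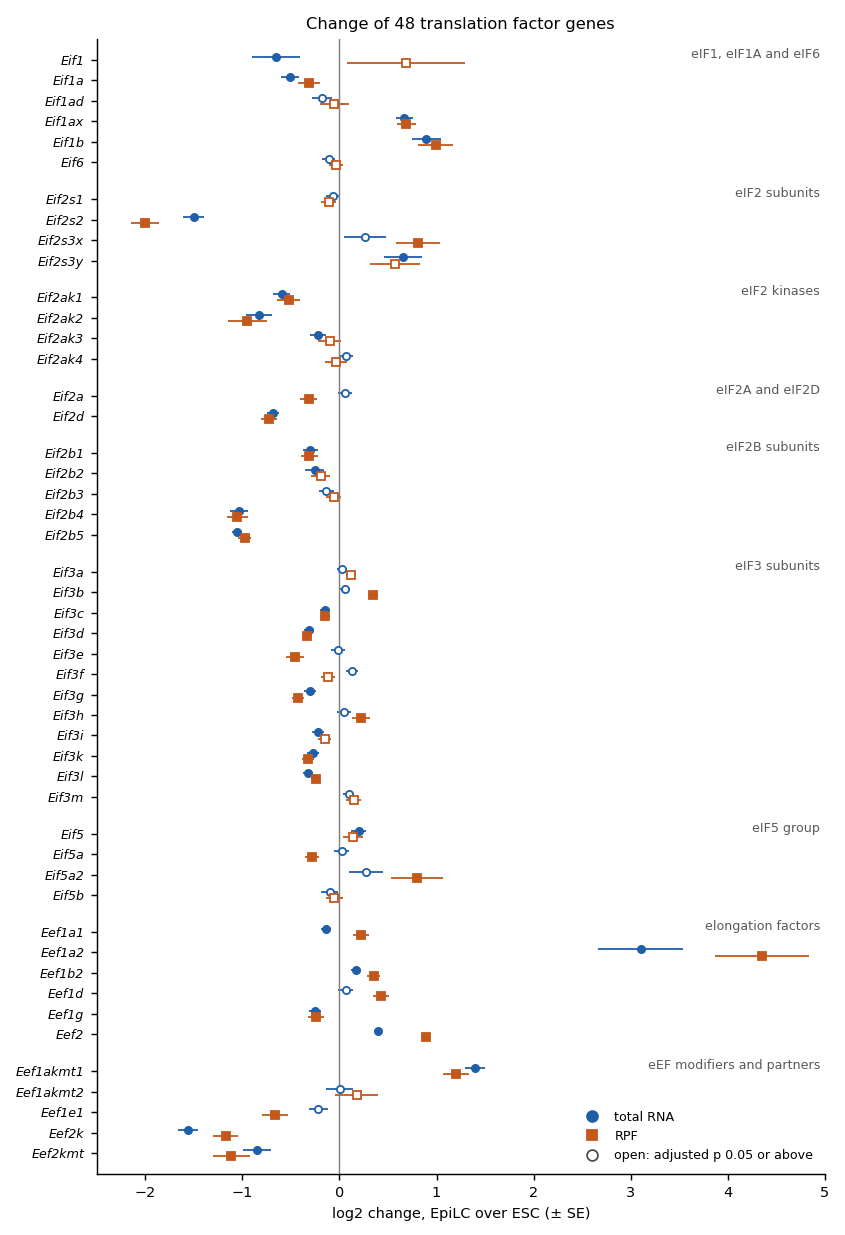
Log2 change from ESC to EpiLC for the 48 tested translation factor genes, in total RNA (blue circles) and RPFs (orange squares), with standard errors, grouped by role. Filled symbols passed at adjusted p below 0.05. Most members lay within a log2 change of 1 of 0, Eif2s2 (-1.50 and -2.0) and Eef2k (-1.56 and -1.17) were the lowest, and Eef1a2 (3.10 and 4.35) and Eef1akmt1 (1.39 and 1.2) the highest.

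Among the factors that set start codon selection, Eif1b and Eif1ax rose and Eif1a fell. Eif1b, which encodes a second eIF1, had 10.8, 12.9 and 13.4 CPM in ESC total RNA and 21.0, 24.2 and 24.6 CPM in EpiLC total RNA. Its RPFs were 12.8, 16.6 and 14 CPM in ESCs and 34.4, 31.2 and 22.0 CPM in EpiLCs. The groups did not overlap on either scale, with log2 changes of 0.90 ± 0.15 (SE, adjusted p = 9.51e-06) in total RNA and 0.99 ± 0.18 (adjusted p = 4.05e-05) in RPFs.

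Eif1ax, the X-linked gene of the scanning factor eIF1A, also rose. It measured 153, 178 and 166 CPM in ESC total RNA and 242, 264 and 289.9 CPM in EpiLC total RNA. RPFs were 201, 220.0 and 194 CPM in ESCs and 278, 313 and 393 CPM in EpiLCs. The log2 changes were 0.67 ± 0.09 (adjusted p = 4.14e-07) and 0.69 ± 0.10 (adjusted p = 1.64e-06). Its autosomal, intronless counterpart Eif1a fell, from between 72.5 and 80.7 CPM to between 50.2 and 57.7 CPM in total RNA, a log2 change of -0.51 ± 0.09 (adjusted p = 3.17e-05). Eif1a RPFs fell by less, -0.31 ± 0.11 (adjusted p = 0.0189), and this call was lost without ESC RPF replicate 1 (adjusted p = 0.0578), without EpiLC RPF replicate 1 (0.0659) and with a correction for GC content (0.130). As a share of the pair's counts per kb, Eif1ax went from 68.1% ± 0.63 (SD, n = 3) to 82.8% ± 0.72 in total RNA and from 70.9% ± 3.29 to 82.8% ± 1.22 in RPFs. Eif1ax kept 90.5% and Eif1a 62.7% of 29-nt windows, so these are shares of counted reads, not of transcripts.

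Eif1 itself was read only through the few windows that no pseudogene shares. Its total RNA was 8.6, 10.8 and 5.92 CPM in ESCs and 5.88, 4.33 and 4.81 CPM in EpiLCs, a log2 change of -0.65 ± 0.25 (adjusted p = 0.0230), and its RPFs rested on 2 to 22 counts a library. The Eif1 call was lost without ESC total RNA replicate 1 (adjusted p = 0.0564), ESC total RNA replicate 2 (0.113), EpiLC total RNA replicate 2 (0.0630) or EpiLC total RNA replicate 3 (0.0715). Eif6, which keeps free large subunits from joining small ones, and Eif1ad, an eIF1A-like gene, did not pass in total RNA or RPFs. Eif6 was -0.11 ± 0.07 in total RNA, with a 95% interval of -0.26 to 0.03.

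Of the eIF2 subunits, the beta subunit gene Eif2s2 (chr2:154872725-154888330, minus strand, mm10 coding extent) fell most. It measured 309.6, 287 and 324 CPM in ESC total RNA and 104, 127 and 98.8 CPM in EpiLC total RNA. RPFs were 332, 285 and 233 CPM in ESCs and 86.1, 66.2 and 58.2 CPM in EpiLCs. Every EpiLC library lay below every ESC library of its kind. The fitted changes were 2.84-fold lower in total RNA (log2 -1.50 ± 0.11, adjusted p = 4.68e-12) and 4.0-fold lower in RPFs (log2 -2.0 ± 0.15, adjusted p = 1.42e-11). The TE change, -0.50 ± 0.18, did not pass (adjusted p = 0.185), although it did without ESC RPF replicate 3 (log2 -0.65, adjusted p = 0.0299). These counts came from the 15.0% of its 29-nt windows that are unique, with 1 annotated pseudogene sharing the rest.

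The alpha subunit gene Eif2s1, the target of the stress kinases, stood at 250.7 to 293 CPM in ESC total RNA and 221 to 278 CPM in EpiLC total RNA, with overlapping groups. Its log2 change was -0.07 (95% interval -0.22 to 0.08) in total RNA and -0.11 (-0.27 to 0.05) in RPFs. The gamma subunit has an X-linked and a Y-linked gene. Eif2s3y total RNA was 12, 15.4 and 8.83 CPM in ESCs and 14.2, 22.9 and 23.8 CPM in EpiLCs, a log2 change of 0.65 ± 0.20 (adjusted p = 0.00508) between groups that overlapped, and the call was lost without ESC total RNA replicate 3 (adjusted p = 0.0520). The Eif2s3y RPF change of 0.57 did not pass (adjusted p = 0.0596), but did with total-count scaling (adjusted p = 0.0484), with the GC correction (log2 0.69, adjusted p = 0.0127), and without ESC total RNA replicate 2 (0.0458), EpiLC total RNA replicate 1 (0.0273) or EpiLC total RNA replicate 3 (0.0487). Eif2s3x RPFs were 6.02, 7.02 and 6.51 CPM in ESCs and 10.6, 11.8 and 11.6 CPM in EpiLCs, a log2 change of 0.81 ± 0.23 (adjusted p = 0.00363). With 1.79% of windows unique to Eif2s3x, its level relative to Eif2s3y cannot be read from these counts.

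**Figure D2:**
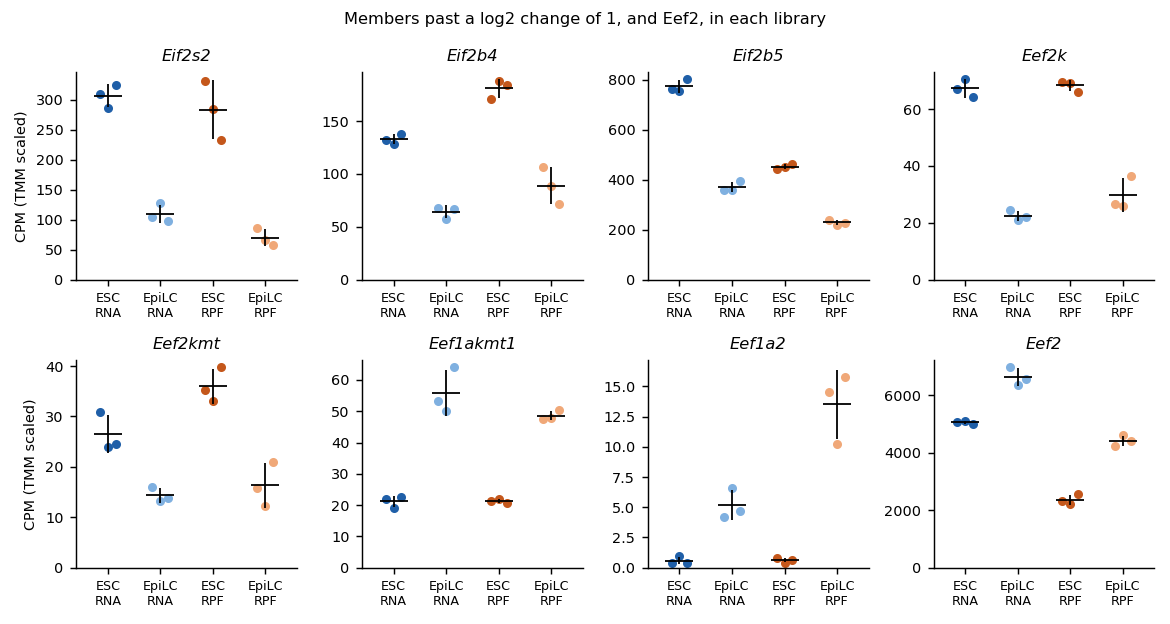
CPM in each library (points), with group mean and SD (black), for the 7 members past a log2 change of 1 in total RNA or RPFs and for Eef2. In all 8 panels the ESC and EpiLC points of total RNA, and those of RPFs, did not overlap.

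Among the eIF2 kinases, Eif2ak1 and Eif2ak2 fell on both scales. Eif2ak2, which encodes PKR, the kinase activated by double-stranded RNA, was 37.6, 38.2 and 38.8 CPM in ESC total RNA and 18.2, 27.6 and 22.9 CPM in EpiLC total RNA. Its RPFs were 41.0, 35.3 and 27.2 CPM in ESCs and 16.6, 18.6 and 16.9 CPM in EpiLCs. Both scales separated the groups, with log2 changes of -0.83 ± 0.13 (adjusted p = 7.06e-06) and -0.95 ± 0.20 (adjusted p = 0.000234). Eif2ak1, which encodes the heme-regulated kinase, fell by 0.60 in total RNA (adjusted p = 2.57e-06) and by 0.52 in RPFs (adjusted p = 0.000636) on the log2 scale. Eif2ak3, which encodes the endoplasmic reticulum kinase PERK, fell by 0.22 in total RNA (adjusted p = 0.0210) and did not pass in RPFs. Eif2ak4, which encodes the amino acid sensor GCN2, passed in neither, at 0.07 and -0.04. In all, 3 of 4 kinases fell in total RNA and 2 of 4 in RPFs, and 0 rose, where 30.7% and 28.7% of all genes tested were lower.

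Eif2d and Eif2a encode factors that can bring tRNA to the ribosome without eIF2. Eif2d fell from 175, 180.4 and 172 CPM to 112, 108 and 106 CPM in total RNA and from 119, 117 and 120.2 CPM to 71.8, 70.0 and 73.4 CPM in RPFs. The log2 changes were -0.69 ± 0.06 (adjusted p = 3.81e-10) and -0.73 ± 0.08 (adjusted p = 6.01e-08). Eif2a RPFs fell from 201 to 213 CPM down to 139 to 194 CPM (log2 -0.32 ± 0.09, adjusted p = 0.00290), and its total RNA change of 0.06 ± 0.07 did not pass. Its TE change of -0.37 ± 0.11 did not pass (adjusted p = 0.102).

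In eIF2B, the exchange factor for eIF2, the delta and epsilon subunits fell by about 1 on the log2 scale. Eif2b5 (chr16:20498959-20509020, plus strand), the catalytic epsilon subunit, was 762, 756 and 802 CPM in ESC total RNA and 361, 358 and 395 CPM in EpiLC total RNA. Its RPFs were 443, 452 and 462 CPM in ESCs and 238, 220.2 and 228 CPM in EpiLCs. The libraries of a group lay close together and the groups far apart. The log2 changes were -1.06 ± 0.05 (adjusted p = 2.97e-15) in total RNA and -0.98 ± 0.07 (adjusted p = 3.04e-12) in RPFs.

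Eif2b4 (chr5:31187601-31192931, minus strand), the regulatory delta subunit, followed the same course. Total RNA was 133, 128 and 138 CPM in ESCs and 68.2, 57.2 and 67.1 CPM in EpiLCs. RPFs were 171, 188 and 184 CPM in ESCs and 106, 88.6 and 71.3 CPM in EpiLCs. The log2 changes were -1.03 ± 0.09 (adjusted p = 4.83e-10) and -1.05 ± 0.11 (adjusted p = 5.29e-09). Its 3 EpiLC RPF libraries were spread more than those of any other group for this gene, without reaching the ESC range.

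The other eIF2B subunits moved little. Eif2b1, the alpha subunit, fell by 0.30 in total RNA (adjusted p = 0.00111) and by 0.31 in RPFs (adjusted p = 0.00325). Eif2b2, the beta subunit, had 45.9, 44.1 and 51.8 CPM in ESC and 36.1, 43.6 and 41.3 CPM in EpiLC total RNA, without overlap, and 93.6, 89.8 and 101.7 CPM in ESC and 87.5, 80.2 and 82.4 CPM in EpiLC RPFs. It fell by 0.26 in total RNA (adjusted p = 0.0221), a call lost without ESC total RNA replicate 3 (adjusted p = 0.116) or EpiLC total RNA replicate 1 (0.261), and its RPF change of -0.19 did not pass (adjusted p = 0.0841). That RPF change passed without ESC RPF replicate 1 (adjusted p = 0.0408), ESC RPF replicate 2 (0.0310) or EpiLC RPF replicate 1 (0.0491), with DESeq2-type size factors (0.0497) and with the GC correction (0.0360). Eif2b3, the gamma subunit that pairs with epsilon, was at -0.13 and -0.06 and passed in neither. Thus 4 of 5 subunits fell in total RNA and 3 of 5 in RPFs, and 0 rose, beside the 30.7% and 28.7% of all genes tested that were lower.

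Set on a common scale per kb of counted sequence, the eIF2B subunits were unequal in total RNA and closer together in RPFs. In ESC total RNA Eif2b5 stood at 367 ± 11.8 CPM per kb (SD, n = 3), above Eif2b1 at 88.5 ± 2.36, Eif2b3 at 78.7 ± 2.68, Eif2b4 at 78.0 ± 2.81 and Eif2b2 at 46.7 ± 3.99. In ESC RPFs the same subunits stood at 214 ± 4.63, 118 ± 2.67, 142 ± 7.81, 106 ± 5.18 and 94.0 ± 6.0 CPM per kb. The subunit order therefore kept Eif2b5 at the top and Eif2b2 at the bottom on both scales, and Eif2b3 and Eif2b4, which did not differ beyond their spread in total RNA, were apart in RPFs. In EpiLC RPFs the top place went to Eif2b3, at 136 ± 6.19 CPM per kb, ahead of Eif2b5 at 109 ± 4.35.

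The highest eIF2B subunit exceeded the lowest 7.87 ± 0.41 times in ESC total RNA and 2.29 ± 0.12 times in ESC RPFs. In EpiLCs these ratios were 4.86 ± 0.17 and 2.69 ± 0.64. The SD of log2 levels among the 5 subunits was 1.10 to 1.13 in ESC total RNA libraries against 0.45 to 0.48 in ESC RPF libraries, and 0.89 to 0.92 against 0.42 to 0.66 in EpiLCs, so the libraries of the 2 kinds did not overlap in either state. Much of this rested on Eif2b5. Over the other 4 subunits the SD was 0.41 in total RNA and 0.26 in RPFs in ESCs, and 0.52 and 0.58 in EpiLCs, where the order turned. Every 29-nt and 50-nt window of the 5 subunits is unique among annotated transcripts.

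**Figure D3:**
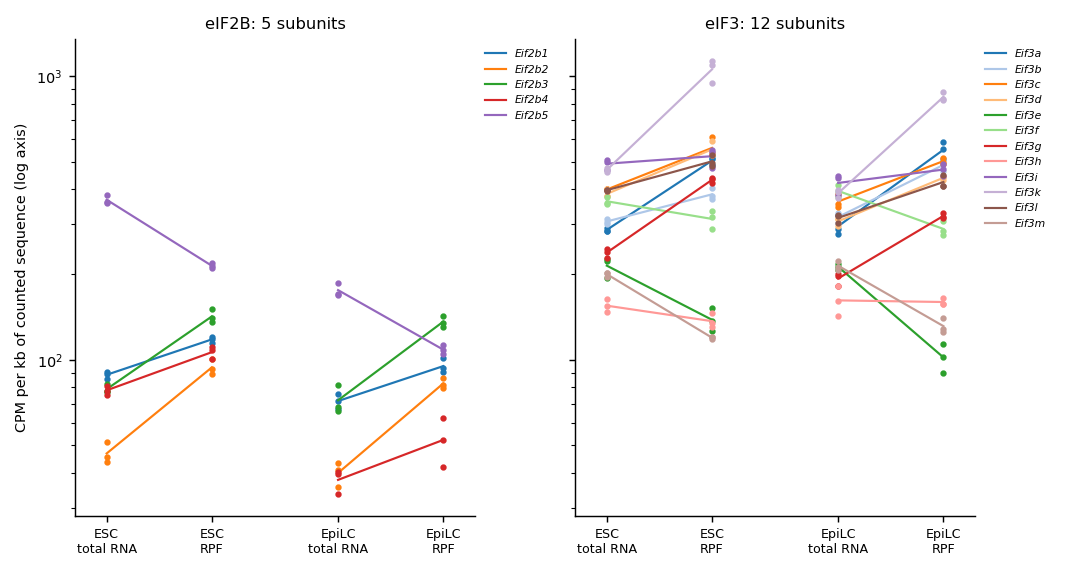
Level of each subunit, in CPM per kb of counted sequence on a log axis, for eIF2B (left, 5 subunits) and eIF3 (right, 12 tested subunits), with points for libraries and lines joining the total RNA and RPF means of a state. The eIF2B lines draw together from total RNA to RPFs in ESCs as Eif2b5 drops and the other 4 rise, while the eIF3 lines spread out.

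The eIF3 subunits changed by small amounts in both directions. Of 12 tested, 6 fell and 0 rose in total RNA, and 6 fell and 2 rose in RPFs, where 65.4% and 59.8% of all genes tested were called. No log2 change exceeded 0.46 in size. Eif3l fell most in total RNA, from 655, 650.2 and 656 CPM to 534, 502 and 531 CPM (log2 -0.32 ± 0.05, adjusted p = 5.45e-06). Its RPFs fell by 0.24 (adjusted p = 0.000524). Eif3d, Eif3g, Eif3k and Eif3c fell on both scales too, by 0.15 to 0.32 in total RNA and 0.15 to 0.43 in RPFs, and Eif3i fell in total RNA (-0.22) and did not pass in RPFs.

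Eif3b and Eif3e moved in opposite directions in RPFs, and neither passed in total RNA. Eif3b RPFs were 892, 876 and 952 CPM in ESCs and 1157, 1093 and 1204 CPM in EpiLCs, while total RNA was 715, 726 and 742 CPM and then 766, 780.0 and 718 CPM. The RPF groups were apart and the total RNA groups overlapped. Its RPF change was 0.34 ± 0.05 (adjusted p = 4.14e-06) and its TE change 0.29 ± 0.07 (adjusted p = 0.0435). The TE call was lost in edgeR's quasi-likelihood test (adjusted p = 0.0811), with every gene that had a count in the test (0.0568), with a GC correction (0.0641), and on omission of any of 10 of the 12 libraries, at adjusted p up to 0.140. It held without ESC RPF replicate 3 and without EpiLC total RNA replicate 2.

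Eif3e RPFs were 197, 163 and 177 CPM in ESCs and 147, 132 and 117 CPM in EpiLCs, with total RNA at 288, 294 and 250.7 CPM and then 269, 282 and 275 CPM. Its RPF change was -0.46 ± 0.10 (adjusted p = 0.000220). The TE change, -0.44 ± 0.12, did not pass (adjusted p = 0.0664), and passed without EpiLC RPF replicate 1 (log2 -0.54, adjusted p = 0.0326). Eif3h rose in RPFs by 0.22 ± 0.09 (adjusted p = 0.0328). Eif3a, Eif3f and Eif3m passed on neither scale, although Eif3m RPFs (0.15) passed with total-count scaling (adjusted p = 0.0478) and the GC correction (0.0226). Eif3j1 and Eif3j2, which encode the loosely bound eIF3j, have no window of their own at the length of these reads, so the 0 to 1.24 CPM they received in each library does not measure their expression.

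Unlike the full set of eIF2B subunits, the eIF3 subunits were more unequal in RPFs than in total RNA. Without Eif2b5, eIF2B in EpiLCs also had the larger SD in RPFs. The SD of log2 levels per kb among 12 subunits was 0.53 in ESC total RNA and 0.98 in ESC RPFs, and 0.46 and 0.93 in EpiLCs. Eif3k stood highest in ESC RPFs, at 1057 ± 95.2 CPM per kb, and Eif3m lowest, at 119.6 ± 0.89. Eif3k RPFs were 631, 725 and 752 CPM in ESCs and 546, 584 and 555 CPM in EpiLCs, without overlap. Eif3m RPFs were 129.7, 129.8 and 128 CPM in ESCs and 139, 135 and 152 CPM in EpiLCs, also without overlap although the change did not pass. Eif3e (49.7% of windows unique), Eif3h (50.3%) and Eif3m (33.6%) were the low subunits in RPFs. Counted per unique window in place of per kb, the SD fell to 0.36 in total RNA and 0.57 in RPFs in ESCs, and to 0.34 and 0.55 in EpiLCs, so it remained larger in RPFs.

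In the eIF5 group the GTPase activator gene Eif5 rose in total RNA, from 309, 334 and 318 CPM to 346, 369.7 and 391 CPM. Its log2 change was 0.20 ± 0.08 (adjusted p = 0.0231). The Eif5 call did not hold in edgeR (adjusted p = 0.0638), DESeq2 (0.172), DESeq2-type size factors (0.0676), the test of every gene with a count (0.0673) or the GC correction (0.141). It was also lost in 7 of the 12 fits without a single library, at adjusted p up to 0.0982: those without ESC RPF replicates 1, 2 or 3, ESC total RNA replicates 1 or 3, EpiLC RPF replicate 2 or EpiLC total RNA replicate 3. Eif5b, the subunit joining GTPase, passed on neither scale, at -0.10 and -0.05.

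Eif5a, the hypusine-bearing factor that relieves stalls at difficult peptide bonds, and its paralogue Eif5a2 moved in opposite directions in RPFs. Eif5a RPFs were 852, 713 and 780.3 CPM in ESCs and 597, 670.4 and 673 CPM in EpiLCs (log2 -0.28 ± 0.08, adjusted p = 0.00257), with total RNA at 0.02 ± 0.08. Its TE change of -0.31 ± 0.11 did not pass (adjusted p = 0.172), but did without EpiLC total RNA replicate 3 (log2 -0.41, adjusted p = 0.0436). Eif5a2 RPFs were 6.79, 4.68 and 5.14 CPM in ESCs and 9.12, 13.3 and 8.63 CPM in EpiLCs (log2 0.80 ± 0.27, adjusted p = 0.0126). The Eif5a2 call was lost without ESC RPF replicate 3 (adjusted p = 0.0712) or EpiLC RPF replicate 2 (0.0640). Its total RNA change of 0.27 did not pass (adjusted p = 0.178), but did without EpiLC total RNA replicate 1 (log2 0.51, adjusted p = 0.0265). Eif5a2 made up 0.70% ± 0.08 of the pair's RPFs per kb in ESCs and 1.58% ± 0.35 in EpiLCs, so Eif5a held the rest in both states. Eif5a kept 55.8% and Eif5a2 100% of 29-nt windows, so these too are shares of counted reads.

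Of the elongation factors, eEF2 changed most firmly. Eef2 (chr10:81177707-81182082, plus strand) had 5058, 5117 and 4992 CPM in ESC total RNA and 6988, 6353 and 6549 CPM in EpiLC total RNA. RPFs were 2311, 2208 and 2563 CPM in ESCs and 4234, 4604 and 4395 CPM in EpiLCs. Neither scale showed overlap, and the RPF rise was the larger. The log2 changes were 0.39 ± 0.04 in total RNA (adjusted p = 6.98e-09) and 0.89 ± 0.05 in RPFs (adjusted p = 1.59e-13). The TE change was 0.50 ± 0.07, with a 95% interval of 0.36 to 0.63 (adjusted p = 0.000139). It passed in all 12 fits without a single library, at 0.45 to 0.57 (adjusted p from 2.94e-05 to 0.00220).

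Eef2k and Eef2kmt fell while Eef2 rose. Eef2k (chr7:120858465-120903391, plus strand), the kinase that inhibits eEF2, was 67.1, 70.6 and 64.1 CPM in ESC total RNA and 24.4, 20.8 and 21.9 CPM in EpiLC total RNA. Its RPFs were 69.6, 69.1 and 66.1 CPM in ESCs and 26.5, 25.9 and 36.6 CPM in EpiLCs. Both sets were far apart, at 2.95-fold lower in total RNA (log2 -1.56 ± 0.11, adjusted p = 2.15e-12) and 2.25-fold lower in RPFs (log2 -1.17 ± 0.13, adjusted p = 3.01e-08).

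Eef2kmt, the lysine methyltransferase of eEF2, went from 30.8, 24.0 and 24.5 CPM to 16, 13.3 and 13.8 CPM in total RNA. RPFs went from 35.3, 33.0 and 39.8 CPM to 15.8, 12.2 and 21.0 CPM. The groups did not overlap. The log2 changes were -0.85 ± 0.14 (adjusted p = 1.37e-05) and -1.11 ± 0.19 (adjusted p = 1.45e-05).

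The eEF1A genes showed a large rise in the minor form. Eef1a2 (chr2:181147979-181155361, minus strand), the form known from neurons and muscle, had 0.365, 0.927 and 0.429 CPM in ESC total RNA, from 21 counts in all, and 4.21, 6.57 and 4.70 CPM in EpiLC total RNA, from 145 counts. RPFs were 0.769, 0.425 and 0.642 CPM in ESCs, from 15 counts, and 14.5, 10.3 and 15.8 CPM in EpiLCs, from 181 counts. Every EpiLC library was above every ESC library. The fitted log2 changes were 3.10 ± 0.44 (adjusted p = 1.12e-06) and 4.35 ± 0.48 (adjusted p = 2.94e-08), and the TE change of 1.25 ± 0.65 did not pass (adjusted p = 0.407).

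Eef1a1, the form used in most cells, far exceeded it. Total RNA was 2865, 3075 and 2701 CPM in ESCs and 2737, 2593 and 2480.2 CPM in EpiLCs, and RPFs were 519, 486 and 609 CPM in ESCs and 568, 695 and 655 CPM in EpiLCs. Both pairs of groups overlapped. It passed with opposite signs, at -0.14 ± 0.06 in total RNA (adjusted p = 0.0298) and 0.22 ± 0.08 in RPFs (adjusted p = 0.0249), and the TE change of 0.36 ± 0.10 did not pass (adjusted p = 0.0731). The total RNA call was lost in edgeR (adjusted p = 0.106) and DESeq2 (0.0537) and without ESC total RNA replicate 1 (0.0554), ESC total RNA replicate 2 (0.176), EpiLC total RNA replicate 2 (0.0707) or EpiLC total RNA replicate 3 (0.181). The RPF call was lost with every gene that had a count in the test (0.108) and without ESC RPF replicate 1 (0.177), ESC RPF replicate 2 (0.240), EpiLC RPF replicate 2 (0.183) or EpiLC RPF replicate 3 (0.138). The TE change passed without ESC RPF replicate 3 (0.0108) or EpiLC RPF replicate 1 (0.0327).

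Of the counts per kb of the 2 genes, Eef1a2 made up 0.020% ± 0.0093 in ESC and 0.20% ± 0.050 in EpiLC total RNA, and 0.11% ± 0.031 and 2.10% ± 0.56 in RPFs. Eef1a1 kept 11.4% and Eef1a2 99.9% of its 29-nt windows, so these are shares of counted reads, not of transcripts.

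The eEF1B subunits, which recharge eEF1A, did not move together. Eef1d RPFs were 684, 729 and 812 CPM in ESCs and 932, 1039 and 1041 CPM in EpiLCs (log2 0.43 ± 0.08, adjusted p = 0.000109), with total RNA at 0.06 ± 0.08, which passed without EpiLC total RNA replicate 2 (log2 0.19, adjusted p = 0.0200). Eef1b2 rose by 0.17 ± 0.05 in total RNA (adjusted p = 0.00761) and by 0.35 ± 0.07 in RPFs (adjusted p = 5.79e-05). Eef1g fell from 276, 303 and 288 CPM to 249, 237 and 238 CPM in total RNA (log2 -0.25 ± 0.06, adjusted p = 0.000670) and by 0.24 in RPFs (adjusted p = 0.0158), the latter lost without ESC RPF replicate 3 (adjusted p = 0.0749). In RPFs 5 of the 6 elongation factors thus rose and 1 fell, and in total RNA 3 rose and 2 fell, where 31.1% and 34.6% of all genes tested were higher. These counts include Eef1a1, whose calls were lost in the fits named above. Their median TE change was 0.36, beside 0.01 over all genes tested, and 1 of 6 passed.

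Among the partners of eEF1A, Eef1akmt1 (chr14:57549743-57566050, minus strand), a lysine methyltransferase of eEF1A, was 21.8, 19.1 and 22.5 CPM in ESC total RNA and 53.2, 49.99 and 64.2 CPM in EpiLC total RNA. RPFs were 21.3, 21.9 and 20.8 CPM in ESCs and 47.5, 47.9 and 50.3 CPM in EpiLCs. The groups were apart on both scales, with log2 changes of 1.39 ± 0.11 (adjusted p = 1.81e-11) and 1.2 ± 0.14 (adjusted p = 4.09e-08). Eef1akmt2, another such enzyme, passed on neither scale. Eef1e1, a scaffold protein of the aminoacyl-tRNA synthetase complex, fell in RPFs from 59.8 to 71.5 CPM down to 35.4 to 47.1 CPM (log2 -0.66 ± 0.14, adjusted p = 0.000179), and its total RNA change of -0.22 did not pass (adjusted p = 0.0576). Eef1akmt3 was too low to test, at 1.15, 1.91 and 1.56 CPM in ESC RPFs and 0 in every EpiLC RPF library, and at 0.0843 to 1.54 CPM in ESC and 0 to 0.134 CPM in EpiLC total RNA.

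**Figure D4:**
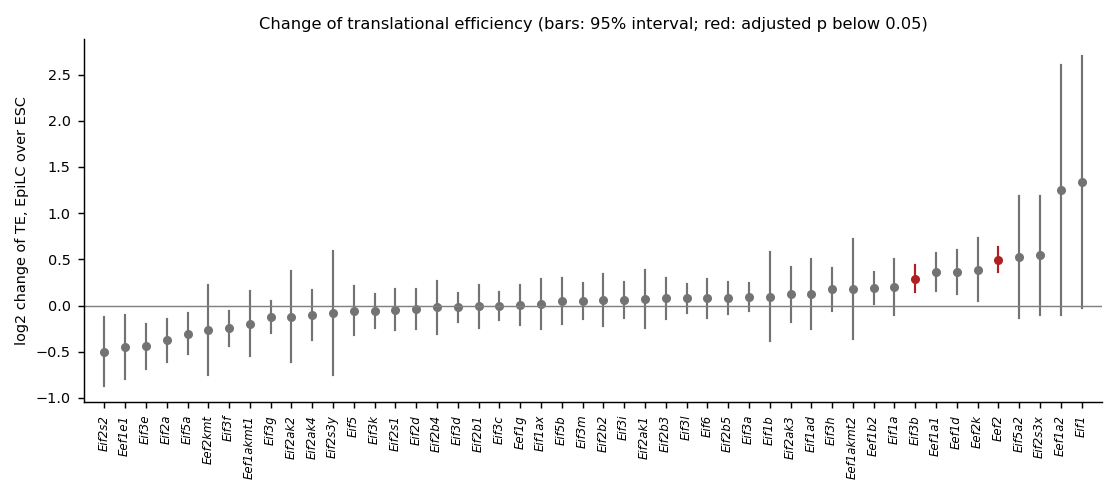
Log2 change of TE from ESC to EpiLC for the 48 tested members in order of size, with 95% intervals from the limma fit. Eef2 (0.50) and Eif3b (0.29), in red, passed at adjusted p below 0.05, and Eef1a2 (1.25) and Eif1 (1.34), with few counts, had the widest intervals.

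Within a state, TE levels were taken as RPFs over total RNA on the log2 scale. The median over all genes tested was -0.02 in ESCs and -0.01 in EpiLCs. In ESCs 19 members were higher and 17 lower, where 67.5% of all genes were called (33.0% higher and 34.5% lower). In EpiLCs 21 were higher and 18 lower, where 64.3% were called (31.3% higher and 33.0% lower). The members were called a little more often than genes at large, and about as often up as down.

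In eIF2B 4 of 5 subunits had high TE in both states, led by Eif2b2 at 1.03 ± 0.09 in ESCs, and Eif2b5 had low TE, at -0.77 ± 0.05. In EpiLCs the Eif2b4 call was lost without EpiLC RPF replicate 1 (log2 0.28, adjusted p = 0.0521). Of the kinases, 2 of 4 were low and 0 high, with Eif2ak4 at -0.97 ± 0.08. In eIF3 7 subunits were high and 4 low in ESCs, from Eif3k at 1.17 ± 0.06 to Eif3m at -0.75 ± 0.06. In the eIF5 group Eif5a was at 1.08 ± 0.07 and Eif5 at -1.12 ± 0.09. Of the elongation factors, 4 of 6 were low, with Eef1a1 at -2.41 ± 0.07, Eef2 at -1.09 ± 0.05 and Eef1g at -1.07 ± 0.07, and Eef1d alone was high, at 0.43 ± 0.08. All of these passed in limma after adjustment. With the GC correction the Eif3e level was -0.01 and no longer passed (adjusted p = 0.877), Eif3m stood at -0.38 and Eif5 at -0.57, both still called low.

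TE levels were also set beside the share of unique sequence. Among the 8 tested members with under 50% of 29-nt windows unique, log2 TE in ESCs ranged from -2.54 to 0.51 with a median of -0.69, beside 0.05 among the 21 tested members with at least 99% unique and 0.07 over the 48. The Spearman correlation of TE in ESCs with the share of unique windows was 0.24 over 48 genes, which share libraries and depth. Dividing RPFs by unique 29-nt windows and total RNA by unique 50-nt windows moved Eif1 from -2.54 to -0.01, Eef1g from -1.07 to 0.10, Eif3m from -0.75 to -0.02 and Eif3e from -0.63 to -0.04. After the same step Eef1a1 stood at -1.18, Eif5 at -0.79, Eef2 at -0.71 and Eef1b2 at -0.61, still low. Levels also moved up and away from 0, Eif2s1 from 0.37 to 1.16 and Eif5a from 1.08 to 1.47, and Eif2s2 went from -0.14 to 0.58. With windows of 32 nt for total RNA, the shortest reads kept, the 8 genes from Eif1 to Eef1b2 moved by less. Eef1a1 then stood at -2.24. Eif1 hardly moved, as 1.128% of its 29-nt, 1.141% of its 32-nt and 6.531% of its 50-nt windows were unique. For Eef1g these shares were 4.604%, 5.425% and 10.35%. The moves to near 0 thus depended on taking total RNA reads as 50 nt long. The part of shared sequence in the TE levels was not tested further.

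**Figure D5:**
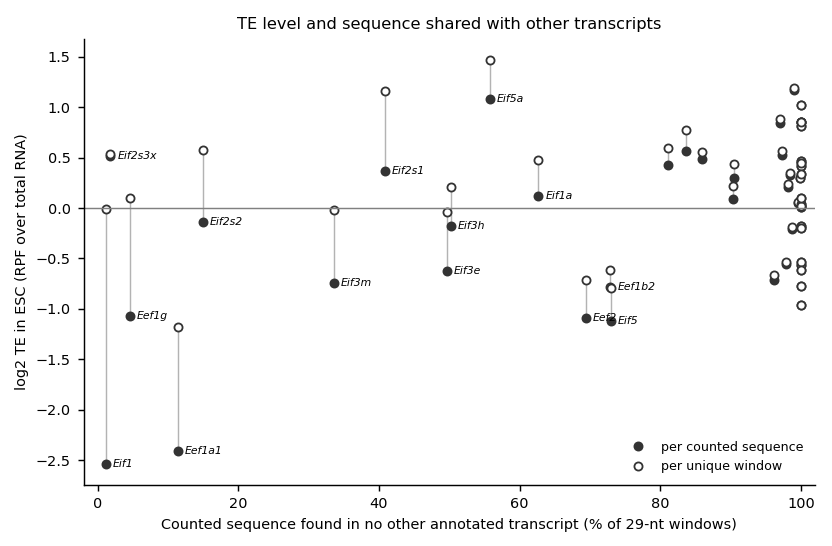
Log2 TE in ESCs against the share of 29-nt windows found in no other annotated transcript for the 48 tested members. Filled points are per counted sequence, open points per unique window (29 nt for RPFs, 50 nt for total RNA), and lines join the same gene. Eif1 moves from -2.54 to -0.01, and Eef1a1 from -2.41 to -1.18. With 32-nt windows for total RNA, not drawn, Eef1a1 moved by less. Eif1 hardly moved, with 1.128% of 29-nt and 1.141% of 32-nt windows unique.

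The 8 members listed as TOP mRNAs (Eef1a1, Eef1b2, Eef1d, Eef1g, Eef2, Eif3e, Eif3f and Eif3h) had low TE in ESCs in 7 of 8 cases, where 34.5% of all genes tested were low, with a median of -0.70. Per unique window, with 50 nt for total RNA, Eef1g stood at 0.10, Eif3h at 0.21 and Eif3e at -0.04. With 32 nt for total RNA these genes moved by less. The Eif3e call was lost with the GC correction (adjusted p = 0.877). From ESC to EpiLC 5 of 8 rose and 2 fell in RPFs, and 2 rose and 2 fell in total RNA, beside the shares of all genes given above. Their median TE change was 0.18, and Eef2 alone passed. Of the 4 with an entry, Eef1a1 and Eif3f had a pyrimidine run near the RefSeq start, and Eef2 and Eef1b2 did not. The runs began at -5 for Eef1a1 and -4 for Eif3f, before that start. Whether these starts are the first bases of the mRNAs was not tested. The windows therefore show neither presence nor absence of a TOP motif.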

How the data were processed

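Ribosome profiling and total RNA libraries (3 of each from ESCs and EpiLCs) were analysed from the counts the authors deposited, 1 table of whole reads per gene. Per the study's methods, adapters were trimmed with cutadapt 1.14, reads were aligned with STAR 2.5.3a to mm10 with only reads of 1 mapping position kept, and reads were counted with featureCounts 1.5.3 on a GENCODE annotation. Per the file headers, and by comparison with the GENCODE annotation of GRCm38, only coding sequence was counted, without its first 45 bases. Such counts take fewer reads from genes with near-identical copies. The treatment of PCR duplicates is not given in the sources used here.

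Genes with at least 3 CPM in at least 3 libraries (11750) were scaled by TMM and tested with voom and limma 3.58.1 (edgeR 4.0.16, R 4.3.3) over all 12 libraries, with TE change as the interaction of state and RNA type and Benjamini-Hochberg adjustment, called at 0.05. The study names limma, the interaction term and the filter. TMM and voom were chosen here because the values are counts. CPM values are TMM-scaled. Depth ran from 2681439 to 14655015 counts a library, and a library's floor is 3 counts, which covers counting error only. The fit was also run on simulated data in which far fewer genes changed than were called here. Its outcome is not given and no result here rests on it.

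Groups came from the labels. The study calls the replicates biological, but the labels do not say whether they were separate cultures, so p-values measure only the spread between these samples. The study describes the total RNA as matched to the RPFs. Same-numbered libraries did not deviate together (correlations from -0.182 to 0.163), so no pairing was used in the main fit. With 3 libraries a group, these correlations do not show that same-numbered libraries came from separate cultures. Fits with blocks are given below. The members and lists were chosen with earlier results of these data known. Values in every library are given for members with the largest called change in each list, members past a log2 change of 1, the 3 members with the smallest TE p-values, paralogue pairs, and the highest and lowest TE level in the main lists. Other genes named with values per library (Eif2a, Eif2s1, Eif3f, Eef1akmt3 and the like) were added after their values were seen.

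Alternatives were edgeR's quasi-likelihood test, DESeq2 1.42.0, other size factors, other filters, replicate blocks, a GC correction and leaving out each library. Levels per unique window, members with at least 90% unique windows, and eIF2B without Eif2b5 were chosen after seeing the data. Start windows came from RefSeq (GRCm38.p6), in which 40 members had an entry. Eef1akmt4 and Eef1aknmt were not analysed here.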

Additional observations from a re-analysis of the deposited data

Results flagged for a closer look

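The RPF and total RNA changes of Eef2 differed by the interaction term, in log2 units by 0.4952 (adjusted p = 0.000139 in limma). RPFs rose by 0.89 and total RNA by 0.39, and the difference passed in all 12 fits without a single library.

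The RPF and total RNA changes of Eif3b also differed, by 0.2917 (adjusted p = 0.0435 in limma), from an RPF rise of 0.34 and a total RNA change of 0.05 that did not pass. This difference was lost in 10 of 12 fits without a single library.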

How the results depend on the processing

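Requiring a log2 change beyond 1 left 2 members higher and 4 lower in total RNA, 2 higher and 4 lower in RPFs, and 0 higher in TE. The count of members with higher TE was 1 in edgeR, with every gene that had a count, and with the GC correction. Among the 31 tested members with at least 90% unique windows, 5 were higher in total RNA, 6 in RPFs and 1 in TE, 8 had low TE in ESCs and 9 in EpiLCs, counts that are smaller partly because fewer members enter. Over all genes tested 34.6% were higher in total RNA, 31.1% in RPFs and 0.57% in TE. Low TE was called for 34.5% of them in ESCs and 33.0% in EpiLCs. The planned count of eIF3 without Eif3j1 and Eif3j2 is the same by construction, since neither was tested.

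With the replicate number as a block, or a block joining RPF and total RNA, 1 member, Eif3e, had lower TE (adjusted p = 0.0335 and 0.0479), and Eif2s3y rose in RPFs under the first (0.0268). The blocks moved no count of calls among members by over 1.5 times apart from that in TE.

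Without single libraries, members higher ranged from 6 to 10 in total RNA, 9 to 14 in RPFs and 1 to 3 in TE, and members lower from 18 to 24, 19 to 23 and 0 to 1. High TE levels ranged from 18 to 20 in ESCs and 19 to 22 in EpiLCs, and low ones from 15 to 18 in both.

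Per unique window the SD of log2 subunit levels in total RNA was 3.11 (ESC) and 2.34 (EpiLC) for eIF2 and 0.36 and 0.34 for eIF3. In RPFs it was 3.41 and 2.74 for eIF2 and 0.57 and 0.55 for eIF3. The eIF2 values take 4 genes, of which Eif2s3x and Eif2s3y both encode gamma. Eif2s3y stood at 8.79 and Eif2s2 at 1307 CPM per kb in ESC total RNA, and Eif2s3x rested on 1.79% of windows. These eIF2 values therefore do not compare subunit amounts. For eIF2B without Eif2b5 the SD was 0.41 and 0.52 in total RNA and 0.26 in ESC RPFs. In EpiLC RPFs that SD exceeded the EpiLC total RNA value, as given above.

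Small changes that had not passed turned sign. With the GC correction Eef1d total RNA was -0.0382, and TE changes were -0.00305 for Eef1g, 0.0268 for Eif2ak2, 0.0710 for Eif2s3y and 0.11 for Eif5. Eif5a total RNA was -0.0202 in DESeq2, -0.0171 with DESeq2-type size factors, -0.00438 with every gene, -0.000536 with at least 10 counts in every library and -0.0146 with the GC correction. The Eif2b4 TE change was 0.0109 in edgeR, 0.0279 in DESeq2, 0.00789 with total-count scaling and 0.00143 with at least 10 counts. A TE level that had passed, that of Eif2s2 in EpiLCs, turned to 0.26 with the GC correction (adjusted p = 0.0557). The cause was not tested.

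Without single libraries these also turned sign in at least 1 fit. TE changes ranged from -0.0377 to 0.0956 for Eef1g, -0.14 to 0.14 for Eif1ax, -0.0880 to 0.34 for Eif1b, -0.33 to 0.0295 for Eif2ak2, -0.0441 to 0.13 for Eif2b2, -0.19 to 0.17 for Eif2b4, -0.42 to 0.11 for Eif2s3y, -0.14 to 0.0129 for Eif3k and -0.26 to 0.0660 for Eif5. Total RNA changes ranged from -0.0219 to 0.19 for Eef1d, -0.0873 to 0.0236 for Eif3e and -0.0565 to 0.13 for Eif5a, and Eif5 RPFs from -0.0968 to 0.23. Low counts limit Eif1, Eef1a2, Eif5a2 and Eif2s3x most.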

Other observations

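Of the 15 eIF4 and poly(A)-binding protein genes, 6 rose and 4 fell in total RNA, and 9 rose and 3 fell in RPFs. Over all genes tested 34.6% rose and 30.7% fell in total RNA, and 31.1% rose and 28.7% fell in RPFs. Eif4g3, an eIF4G scaffold gene, rose by 1.64 ± 0.07 (SE, adjusted p = 4.11e-16 in limma) in total RNA and 1.77 ± 0.10 (adjusted p = 7.99e-14) in RPFs on the log2 scale. Pabpc1, which encodes the main cytoplasmic poly(A)-binding protein, rose in RPFs by 0.60 ± 0.08 (adjusted p = 4.51e-07) with total RNA at -0.04, and its TE change was 0.64 ± 0.10 (adjusted p = 0.000660). Eif4a1, the RNA helicase gene, had a TE change of 1.17 ± 0.26 (adjusted p = 0.0237), on counts from a gene with 0.70% of its 29-nt windows unique and 8 annotated pseudogenes that share windows with it. Pabpc1 had 46.7% unique and 4 such pseudogenes.

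Of the 9 mitochondrial translation factor genes, 5 fell in total RNA and 5 fell in RPFs, with 1 and 0 rising. Mtif3, an initiation factor gene, fell by 0.76 in total RNA (adjusted p = 0.000558) and by 1.18 in RPFs (adjusted p = 1.89e-05). Of 8 termination, recycling and reinitiation genes, Gspt1, which encodes the release factor eRF3a, had a TE change of -0.40 ± 0.09 (adjusted p = 0.0292). Of 12 regulators and modifying enzymes of eIF2, eIF5A and eEF2, 3 rose and 3 fell in total RNA, and Dhps, the enzyme that begins hypusine formation on eIF5A, rose by 0.58 ± 0.09 (adjusted p = 2.03e-06). The share of all genes called was 65.4% in total RNA (34.6% higher and 30.7% lower) and 59.8% in RPFs (31.1% higher and 28.7% lower).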
